A study of Mus musculus with 30 samples.

Results

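The genes of DNA replication and of mitosis described here are 39 named mouse genes, 24 for replication and S phase and 15 for mitosis. They were taken by symbol from the 50764 gene models of each deposited table, and 39 of 39 matched 1 Ensembl identifier each. The rule names them by function and uses no measured value, although the set was drawn up with earlier results of these data known. Replication and mitosis genes are given apart throughout. Their levels were followed in 30 libraries of polyA RNA, 18 from macrophages and 12 from stromal cells that carry podoplanin (PDPN+).

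The libraries form 10 groups of 3. The macrophage groups are cells taken ex vivo, which the labels tie to a lavage, and cells kept in vitro alone, with 1 uM all-trans retinoic acid (ATRA, the active metabolite of vitamin A), in co-culture with PDPN+ cells, across a transwell membrane from PDPN+ cells, and with 1 uM BMS493 (a compound that holds retinoic acid receptors in their repressive state). The PDPN+ groups are cells of the omentum, an apron of fat and lymphoid tissue in the abdomen, kept in vitro alone, from the co-culture, from the transwell and with 1 uM BMS493. Cultured cells were gated on F4/80 or on PDPN and went from the sorter into lysis buffer. The labels leave unsaid if macrophages and PDPN+ cells shared the BMS493 dishes. Strain, sex, age, genotype and time in culture are not stated in the labels.

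Replicates 1, 2 and 3 of each group belong to the batches that the labels call mbb336, mbb339 and mbb340. Nothing says whether they are separate animals or cultures, so every p measures the spread between these samples only. Total counts ran from 29350158 to 54099085 per library. Adgre1, the gene of F4/80, lay at 1794 CPM (counts scaled to the TMM-adjusted library total) or more in each macrophage library and at 66.1 CPM or less in each PDPN+ library. For the co-culture of batch mbb336, source name and title disagree on the cell type of both libraries. The titles were followed, and Adgre1 is high in the library titled macrophage. In BMS493 macrophages 10 fibroblast markers summed to 1111, 832 and 1044 CPM. These sums were 28.8, 6.31 and 101 CPM alone and 1538, 597 and 323 CPM in co-culture. In BMS493 PDPN+ cells 12 macrophage markers summed to 1702, 3879 and 2431 CPM. These sums were 117, 63.3 and 71.3 CPM alone and 2518, 2321 and 1639 CPM in co-culture. BMS493 groups may thus differ from cells alone by partner cells as well as by the compound, which cannot be told apart. The 2 PDPN+ libraries that stand apart in their deviation with exon length are alone replicate 3 and transwell replicate 1 (Spearman rho -0.414 and -0.350 over 14633 genes). The other 10 lay between -0.156 and 0.309, the highest being co-culture replicate 2. The pair was picked after these values were seen. Comparisons that use PDPN+ cells alone or from the transwell are given with and without them. Among macrophage libraries rho ran from -0.260 in alone replicate 2 to 0.249 in transwell replicate 2, over 13660 genes. The part of exon length in the macrophage results was not tested. In bulk RNA, fewer cells of a type and less RNA of a gene per cell cannot be told apart, so a lower level here may be fewer dividing cells or less transcript in each.

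A cell about to copy its DNA first loads the ring-shaped MCM helicase onto origins, then switches it on in S phase and brings in polymerases, the sliding clamp, ligase and the enzymes that supply nucleotides. Mitosis follows with cyclin B and Cdk1, the spindle motors, the aurora and polo kinases and the checkpoint that holds chromosomes until all are attached. Macrophages of body cavities are known to maintain themselves in part by local division, so both sets of genes are commonly read in them. E2F factors are known to drive many replication genes, and the CHR element with CCAAT boxes is known from the promoters of many mitosis genes.

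The promoters of the replication members with the largest differences between cultured and ex vivo macrophages are printed first, because later results turn on these genes. Each is RefSeq sequence of build GRCm38.p6, from 250 bases before to 50 bases after the annotated start, written 5′ to 3′ on the gene's strand. Capitals mark matches to the searched letters on either strand: E2F as TTTCGCGC, TTTGGCGC, TTTCCCGC or TTTGCCGC, the CHR element as TTTGAA or TTCGAA, and the CCAAT box as CCAAT. In Mcm5 the E2F letters matched on both strands at overlapping places, and in Uhrf1 CCAAT did so. The regions are chr2:5012742-5013041 on the minus strand for Mcm10, chr8:75109259-75109558 on the plus strand for Mcm5, chr17:56303087-56303386 on the plus strand for Uhrf1 and chr12:24708004-24708303 on the plus strand for Rrm2.
Mcm10: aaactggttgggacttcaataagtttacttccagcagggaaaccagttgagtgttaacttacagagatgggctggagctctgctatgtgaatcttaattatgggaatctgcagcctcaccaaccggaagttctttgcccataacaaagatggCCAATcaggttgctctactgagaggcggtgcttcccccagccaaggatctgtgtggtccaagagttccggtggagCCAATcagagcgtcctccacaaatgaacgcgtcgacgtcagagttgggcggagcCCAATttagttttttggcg
Mcm5: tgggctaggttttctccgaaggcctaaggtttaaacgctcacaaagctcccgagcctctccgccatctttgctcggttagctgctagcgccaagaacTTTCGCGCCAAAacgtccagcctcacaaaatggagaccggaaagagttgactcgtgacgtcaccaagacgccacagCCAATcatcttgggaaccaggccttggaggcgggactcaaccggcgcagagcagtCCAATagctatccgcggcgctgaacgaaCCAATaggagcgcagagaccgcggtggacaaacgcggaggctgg
Uhrf1: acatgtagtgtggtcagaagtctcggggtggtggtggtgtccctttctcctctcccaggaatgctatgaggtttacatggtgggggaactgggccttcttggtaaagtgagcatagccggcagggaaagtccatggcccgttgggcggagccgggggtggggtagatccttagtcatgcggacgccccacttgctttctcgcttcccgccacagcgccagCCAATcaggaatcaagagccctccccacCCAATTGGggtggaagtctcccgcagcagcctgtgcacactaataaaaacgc
Rrm2: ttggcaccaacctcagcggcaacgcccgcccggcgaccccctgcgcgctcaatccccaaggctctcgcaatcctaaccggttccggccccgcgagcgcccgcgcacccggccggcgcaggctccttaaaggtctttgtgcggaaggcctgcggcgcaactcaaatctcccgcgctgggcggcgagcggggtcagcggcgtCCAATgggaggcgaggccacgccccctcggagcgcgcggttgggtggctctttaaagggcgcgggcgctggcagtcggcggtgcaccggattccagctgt

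The 2 mitosis members with the largest differences follow, at chr19:37376132-37376431 on the plus strand for Kif11 and chr11:99024140-99024439 on the minus strand for Top2a.
Kif11: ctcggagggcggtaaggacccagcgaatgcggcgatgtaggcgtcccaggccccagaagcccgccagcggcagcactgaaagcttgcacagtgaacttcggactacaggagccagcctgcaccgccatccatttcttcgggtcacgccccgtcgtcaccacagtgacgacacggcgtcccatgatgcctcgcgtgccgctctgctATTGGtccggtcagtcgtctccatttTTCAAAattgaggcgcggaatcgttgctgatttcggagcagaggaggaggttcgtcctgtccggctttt
Top2a: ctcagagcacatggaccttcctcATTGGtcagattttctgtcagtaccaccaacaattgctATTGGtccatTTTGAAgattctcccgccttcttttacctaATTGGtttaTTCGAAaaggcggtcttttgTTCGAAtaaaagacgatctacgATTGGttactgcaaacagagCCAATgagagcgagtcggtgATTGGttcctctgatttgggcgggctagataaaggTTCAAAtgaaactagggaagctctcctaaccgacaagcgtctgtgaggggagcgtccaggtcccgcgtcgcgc

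Top2a held the CHR letters at 4 places and CCAAT at 6, Kif11 held 1 of each, and Mcm5 held the E2F letters at 2 overlapping places with 3 CCAAT boxes. Mcm10 and Uhrf1 each had 3 CCAAT matches and Rrm2 had 1, with no E2F or CHR match in these windows. RefSeq promoters were found for 20 replication and 13 mitosis members, while Aurkb, Ccna2, Ccne2, Gins1, Gins2 and Mcm4 had no entry in the table. E2F letters occurred in 7 of the 20 replication genes (35.0%) and 1 of the 13 mitosis genes (7.69%), against 2.26% of all 32851 promoters. CHR letters occurred in 10 of 13 mitosis genes (76.9%) and 3 of 20 replication genes (15%), against 19.2% of all promoters. CCAAT occurred in 12 of 13 mitosis genes (92.3%) and 13 of 20 replication genes (65.0%), against 37.4% of all. For members these counts take 1 start a gene, the one the RefSeq table lists first. The replication genes with E2F letters were Cdc6, Cdt1, Mcm3, Mcm5, Mcm6, Mcm7 and Pola1, and the mitosis gene was Cdk1. Lig1 and Uhrf1 held E2F letters only at another listed start, and Mcm7 lacked them at its other start. A match describes letters, not a bound site.

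Summed over the 24 replication genes, ex vivo macrophages held 1032, 3225 and 1613 CPM in replicates 1, 2 and 3. Macrophages cultured alone held 277, 261 and 461 CPM. The sums of the 3 cultured libraries all lay below those of the 3 ex vivo ones. For the 15 mitosis genes the ex vivo sums were 432, 1933 and 1007 CPM, and the sums in culture alone were 43.7, 43.4 and 206 CPM, so these groups did not overlap either. PDPN+ cells cultured alone held 1187, 1450 and 948 CPM of replication genes and 854, 1063 and 1010 CPM of mitosis genes, which places them within the ex vivo macrophage range in both sets except for replication replicate 3.

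**Figure D1:**
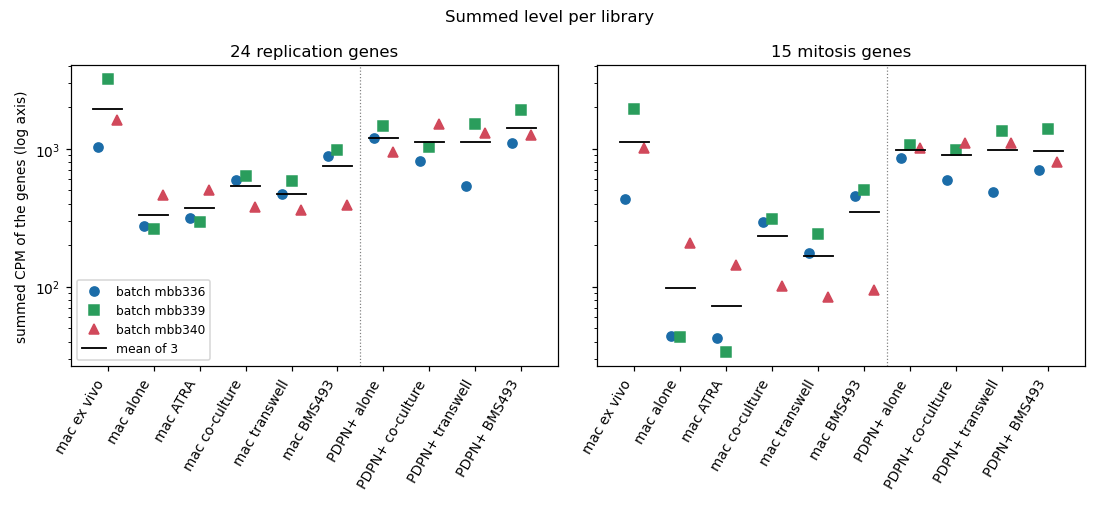
Summed CPM of the 24 replication genes and the 15 mitosis genes (log axis) in each of the 30 libraries, by group, with points coloured by batch. In culture alone the macrophage points sit below the ex vivo points, and in co-culture, transwell and BMS493 macrophages batch mbb340 is the lowest point in both sets.

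Ordered within a group by size-factor-adjusted RPKM, the authors' level per length, Pcna led in ex vivo macrophages at a mean of 80.9, before Rrm2 at 67.7 and Mcm6 at 64.1. Cenpe at 4.25 and Ccne1 at 3.59 came last. In macrophages cultured alone Pcna still led at 49.7, followed by Mcm3 at 13.7 and E2f1 at 10.7, while Cenpe at 0.383 and Mcm10 at 0.337 closed the list. In PDPN+ cells alone the leaders were Rrm1 at 89.6, Ccnb1 at 58.4 and Cdc20 at 52.1, and Cdc6 at 2.82 and Mcm10 at 1.52 were lowest. The sliding clamp gene stood first in both macrophage groups, and a nucleotide enzyme and 2 mitotic regulators led in PDPN+ cells.

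**Figure D2:**
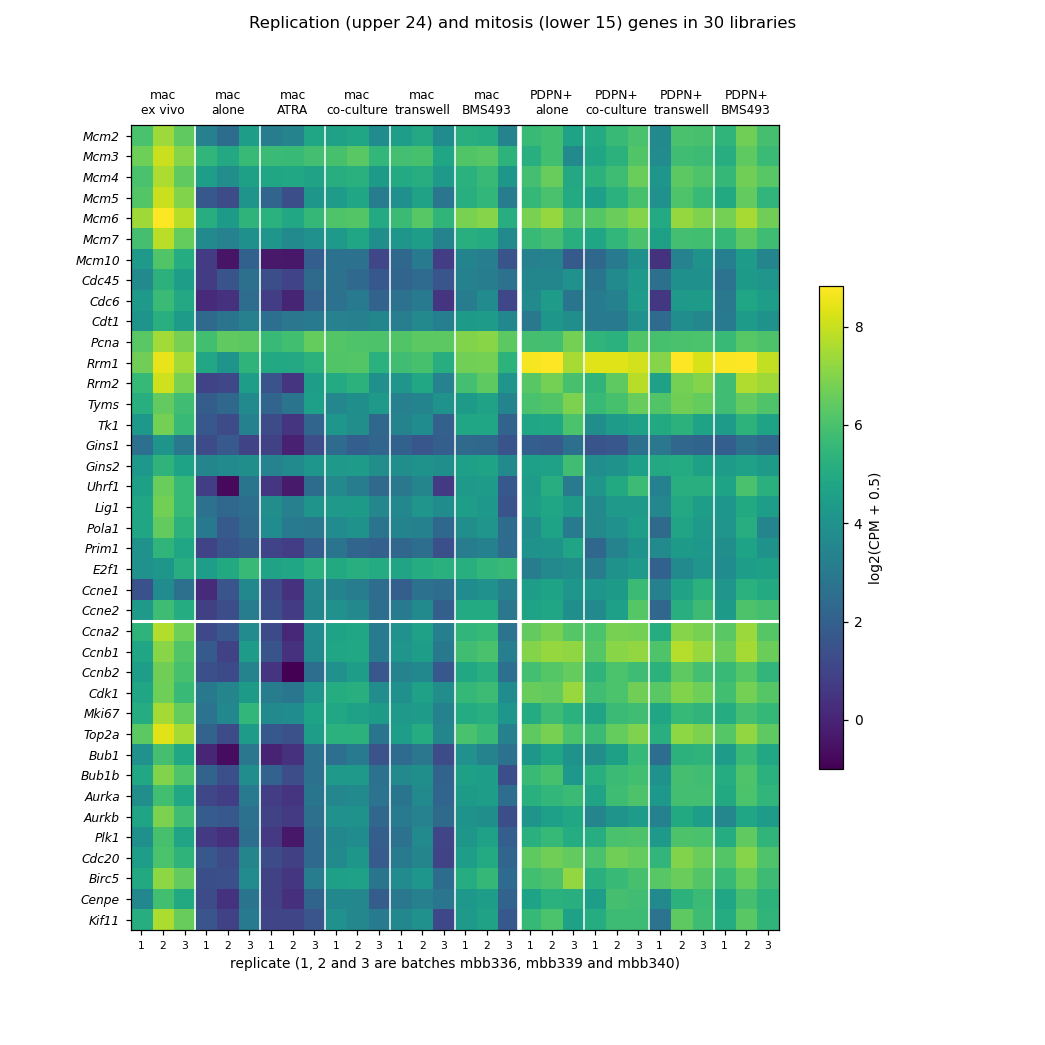
Heat map of log2(CPM + 0.5) for the 39 genes (rows, replication above mitosis) in the 30 libraries (columns, by group and replicate). Ex vivo macrophages and all PDPN+ groups are bright over most rows, macrophages alone and with ATRA are dark, and Pcna stays bright in all columns.

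Macrophages cultured alone had lower RNA of most replication genes than ex vivo cells. Against ex vivo cells, 21 of 24 replication genes fell and none rose, with a median log2 fold change of -3.17, while the median over all 17774 genes tested was 0.08. A gene was called at a Benjamini-Hochberg adjusted p under 0.05 in edgeR's quasi-likelihood test over all genes, and 8.5% of genes were called lower and 9.31% higher in this comparison. All 24 replication and all 15 mitosis genes passed the filter on low counts in every fit.

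Among the genes that build the helicase, Mcm10, an initiation factor, stood at 18.8, 70.5 and 33.6 CPM ex vivo and at 1.16, 0.223 and 3.61 CPM in culture, a log2 fold change of -4.66 (SE 1.16, 25.3-fold, adjusted p = 0.0115). Mcm5, a subunit of the helicase ring, stood at 72.3, 260 and 125 CPM ex vivo and 2.75, 1.92 and 16.5 CPM in culture (log2 fold change -4.47, SE 1.03, adjusted p = 0.00728). For both, every cultured library lay below every ex vivo one, with culture replicate 3 the highest of its group. Cdc6, which loads the ring onto origins, went from 19.5, 51.4 and 30.2 CPM to 0.634, 0.826 and 5.22 CPM (log2 fold change -3.96, SE 1.02, adjusted p = 0.0143), again without overlap. Its partner Cdt1 went from 16.6, 36.2 and 20.7 CPM to 4.65, 6.36 and 9.2 CPM (log2 fold change -1.88). The other ring subunits Mcm2, Mcm3, Mcm4, Mcm6 and Mcm7 and the helicase activators Cdc45, Gins1 and Gins2 all fell, and of these Gins2 had the smallest change at -1.22.

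Of the genes that copy and join the strands, Prim1, the primase subunit that lays down RNA primers, went from 15.6, 43.0 and 27.8 CPM to 1.51, 2.43 and 3.2 CPM (log2 fold change -3.60, SE 0.51, adjusted p = 0.000242). The polymerase alpha gene Pola1 and the ligase gene Lig1 also fell, by 3.38 and 3.53 on the log2 scale. Pcna, the sliding clamp, was not called. It stood at 79.5, 174 and 110 CPM ex vivo and at 57.3, 86.2 and 81.5 CPM in culture, so that 2 of the 3 cultured libraries lay within the ex vivo range (log2 fold change -0.70, adjusted p = 0.0967).

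Genes of nucleotide supply fell as well. Rrm2, the regulatory subunit of ribonucleotide reductase, was at 47.6, 278 and 113 CPM ex vivo and at 1.51, 1.63 and 21.8 CPM in culture (log2 fold change -4.18, SE 1.24, adjusted p = 0.0299), without overlap but with replicate 3 far above the other cultured libraries. Its catalytic partner Rrm1 fell by 2.92, the thymidylate synthase gene Tyms by 3.20 and the thymidine kinase gene Tk1 by 3.67 on the log2 scale. Uhrf1, which binds newly copied half-methylated DNA, went from 23.2, 94.0 and 46.6 CPM to 1.27, 0.0892 and 6.59 CPM (log2 fold change -4.41, SE 1.31, adjusted p = 0.0294), again with no overlap.

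Of the regulators of S phase entry, Ccne2, a cyclin E gene, fell by 3.18 on the log2 scale, while its paralog Ccne1 was not called at 2.28, 13.3 and 5.6 CPM ex vivo and 0.669, 2.54 and 11.6 CPM in culture, where replicate 3 lay among the ex vivo values (adjusted p = 0.746). E2f1, a transcription factor of the E2F family, read higher in culture, at 21.8, 31.0 and 48.2 CPM against 15.1, 18 and 34.3 CPM, with the groups overlapping and no call (log2 fold change 0.58, adjusted p = 0.207). Within each batch E2f1 was higher in culture, and with the batch as a block it was called, where 12.5% of all genes were called higher.

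Of the 15 mitosis genes, 14 fell and none rose, with a median log2 fold change of -3.77 against 0.08 over all genes and 8.5% of genes called lower. Kif11, the spindle kinesin, had the largest change of all members, from 33.8, 197 and 92.0 CPM to 2.5, 1.41 and 7.65 CPM (log2 fold change -4.83, SE 0.97, 28.5-fold, adjusted p = 0.00307). Top2a, the topoisomerase that untangles sister chromosomes, went from 81.6, 331 and 181 CPM to 3.91, 1.96 and 20.9 CPM (log2 fold change -4.50, SE 1.15, adjusted p = 0.0135). In both, cultured and ex vivo libraries did not overlap.

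Ccna2, the cyclin A gene, went from 41.5, 206 and 98.7 CPM to 1.76, 2.7 and 12.9 CPM (log2 fold change -4.35, SE 1.15, adjusted p = 0.0158). Aurkb, the aurora kinase of the chromosomal passenger complex, went from 26.3, 118 and 55.1 CPM to 3.13, 2.74 and 5.85 CPM (log2 fold change -4.10, SE 0.85, adjusted p = 0.0037). Birc5, another member of that complex, went from 31.1, 140 and 87.6 CPM to 2.08, 2.14 and 12.7 CPM (log2 fold change -3.96, SE 1.06, adjusted p = 0.0172). All 3 genes were separated between the groups in every library. The polo kinase gene Plk1, the checkpoint genes Bub1 and Bub1b, Aurka, Cdc20, Cenpe, Ccnb2, Cdk1 and the proliferation marker Mki67 fell by 2.22 to 3.84 on the log2 scale. Ccnb1, cyclin B1, was not called at -3.26 (adjusted p = 0.0568), with 2.96, 1.38 and 20.5 CPM in culture and 27.6, 135 and 69.7 CPM ex vivo.

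The direction was the same within batches. In each pair of libraries compared within a batch, here and below, 45.1% to 52.8% of tested genes were higher. In batches mbb336, mbb339 and mbb340, replication genes were lower in culture for 23, 23 and 22 of 24, with medians of -2.27, -4.41 and -2.13 on the log2 scale, and all 15 mitosis genes were lower in each, with medians of -3.02, -5.58 and -2.21. Ex vivo replicate 2, in batch mbb339, carried the highest sums, and its 12 macrophage markers summed to 65810 CPM against 120642 and 110274 CPM in replicates 1 and 3. Its 5 B cell markers summed to 13.7 CPM against 7.69 and 1.88, and the part of either in its high levels was not tested. Without it the calls went from 35 to 18 members, with 5.18% of genes called lower. Without culture replicate 1 or 2 they were 19 and 17. Here and below, the share of all genes in single omissions is given only for ex vivo replicate 2. Counts of members under other omissions thus cannot be set against all genes. In every one of the 6 omissions 16 members stayed called: Aurkb, Cdc45, Cdt1, Kif11, Lig1, Mcm2 to Mcm7, Mcm10, Pola1, Prim1, Rrm1 and Tyms. The log2 fold change of Rrm2 moved from -6.49 without culture replicate 3 to -3.29 without ex vivo replicate 2, where it was no longer called, and that of Kif11 from -5.74 to -4.03 over the same omissions.

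With ATRA both sets lay below their ex vivo levels. Against ex vivo cells, 22 of 24 replication genes fell and none rose (median log2 fold change -2.86, 6.38% of all genes called lower and 8.52% higher), and 15 of 15 mitosis genes fell (median -4.12). Kif11 stood at 1.59, 1.59 and 2.53 CPM with ATRA (log2 fold change against ex vivo -5.84, SE 1.02, adjusted p = 0.00161) and Mcm10 at 0.298, 0.271 and 3.33 CPM (-5.01, SE 1.18, adjusted p = 0.0102). Ccnb2, a cyclin B gene, stood at 0.926, 0 and 5.34 CPM (-4.93, SE 1.33, adjusted p = 0.0207), and none of these ranges reached the ex vivo values. Uhrf1 (-4.74) and Tk1 (-4.69) came next. E2f1 and Ccne1 were the members not called. Without ex vivo replicate 2 the calls were 20 members (3.46% of all genes called lower), and without ATRA replicate 1 or 2 they were 19 and 20.

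Compared with culture alone, no member was called with ATRA in edgeR or in DESeq2, with 0.281% of all genes called higher and 0.045% lower. One replication gene and no mitosis gene had an unadjusted p under 0.05, and the medians were 0.02 and -0.56. Lig1, the ligase, had the smallest p, at 14.0, 9.14 and 16.5 CPM with ATRA against 5.99, 4.33 and 5.37 CPM alone (log2 fold change 1.32, SE 0.61, adjusted p = 0.646), and its 3 ATRA libraries lay above the 3 without it. Pola1 followed, at 13.1, 7.63 and 7.03 CPM against 7.25, 2.95 and 4.71 CPM (0.90, SE 0.54, adjusted p = 0.803), with overlap. Mitosis genes read lower with ATRA in 12, 11 and 14 of 15 in batches mbb336, mbb339 and mbb340, at medians of -0.30, -0.44 and -0.60, which did not pass the test for any gene. This comparison and those below of co-culture, transwell and BMS493 share the same 3 libraries of cells alone, and all comparisons with ex vivo cells share the 3 ex vivo libraries.

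Macrophages kept with PDPN+ cells also lay below ex vivo in part of both sets. In direct co-culture, 13 of 24 replication genes fell against ex vivo and none rose (median -2.13, 5.45% of genes called lower and 9.47% higher), as did 3 of 15 mitosis genes (median -2.28). The replication genes were the ring subunits Mcm2 to Mcm7, Cdc45, Cdt1, Pcna, Pola1, Prim1, Rrm1 and Tyms, and the mitosis genes were Aurkb, Kif11 and Mki67. Mcm7 stood at 19.2, 27.0 and 14.2 CPM against 59.8, 221 and 89.5 CPM ex vivo, without overlap (log2 fold change -2.67, SE 0.49, adjusted p = 0.00218). Kif11 stood at 15.2, 11.2 and 7.88 CPM (-3.28, SE 0.90, adjusted p = 0.0234), also below every ex vivo library. Within batches mbb336, mbb339 and mbb340, 21, 23 and 24 of 24 replication genes were lower, at medians of -0.80, -2.52 and -2.53. For mitosis genes 12, 15 and 15 of 15 were lower, at -0.57, -2.53 and -3.45. Without ex vivo replicate 2 the calls were 4 (2.57% of all genes called lower), and without co-culture replicates 1, 2 or 3 they were 8, 9 and 6. Mcm4, Mcm6, Mcm7 and Prim1 stayed called in every omission. With the batch as a block E2f1 was called higher and Lig1 lower, and Mki67 was no longer called (13.1% of all genes called higher and 8.57% lower).

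Across the transwell, 14 of 24 replication genes (median -2.32) and 4 of 15 mitosis genes (median -2.88) fell against ex vivo and none rose, with 5.33% of genes called lower and 7.61% higher. The replication calls were Mcm2 to Mcm7, Cdc45, Cdt1, Gins1, Lig1, Pola1, Prim1, Rrm1 and Tyms, and the mitosis calls Aurkb, Bub1b, Kif11 and Mki67. Kif11 was at 11.4, 15 and 1.69 CPM (log2 fold change -3.54, SE 0.91, adjusted p = 0.0186), all below the ex vivo values. Within batches mbb336, mbb339 and mbb340, 22, 23 and 23 of 24 replication genes were lower, at medians of -1.30, -2.58 and -2.52. All 15 mitosis genes were lower in each batch, at -1.24, -3.02 and -3.56. Calls were 7 without ex vivo replicate 2 (2.62% of all genes called lower) and 10, 10 and 8 without transwell replicates 1, 2 and 3.

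With BMS493, 11 of 24 replication genes fell and 1 rose against ex vivo (median -1.69, 8.96% of genes called lower and 12.3% higher), and 2 of 15 mitosis genes, Aurkb and Kif11, fell (median -1.70). Those lower were Mcm2, Mcm3, Mcm4, Mcm6, Mcm7, Cdc45, Lig1, Pola1, Prim1, Rrm1 and Tyms. E2f1 was the only member called higher than ex vivo in any culture, at 36.0, 44.3 and 48.2 CPM against 15.1, 18 and 34.3 CPM (log2 fold change 0.88, SE 0.30, adjusted p = 0.0497), with no overlap. This call rests close to the threshold: leaving out 1 library ended it in 5 of 6 omissions (0.66 and adjusted p = 0.182 without ex vivo replicate 1), as did testing without the low count filter or with only the compared groups. Within batch mbb336, 9 of the 15 mitosis genes were higher with BMS493 than ex vivo, at a median of 0.05, while in batches mbb339 and mbb340 all 15 were lower, at -1.61 and -3.16. Without ex vivo replicate 2 1 member, Mcm7, was called (5.25% of all genes called lower), and without BMS493 replicates 1, 2 or 3 the calls were 9, 6 and 5.

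**Figure D3:**
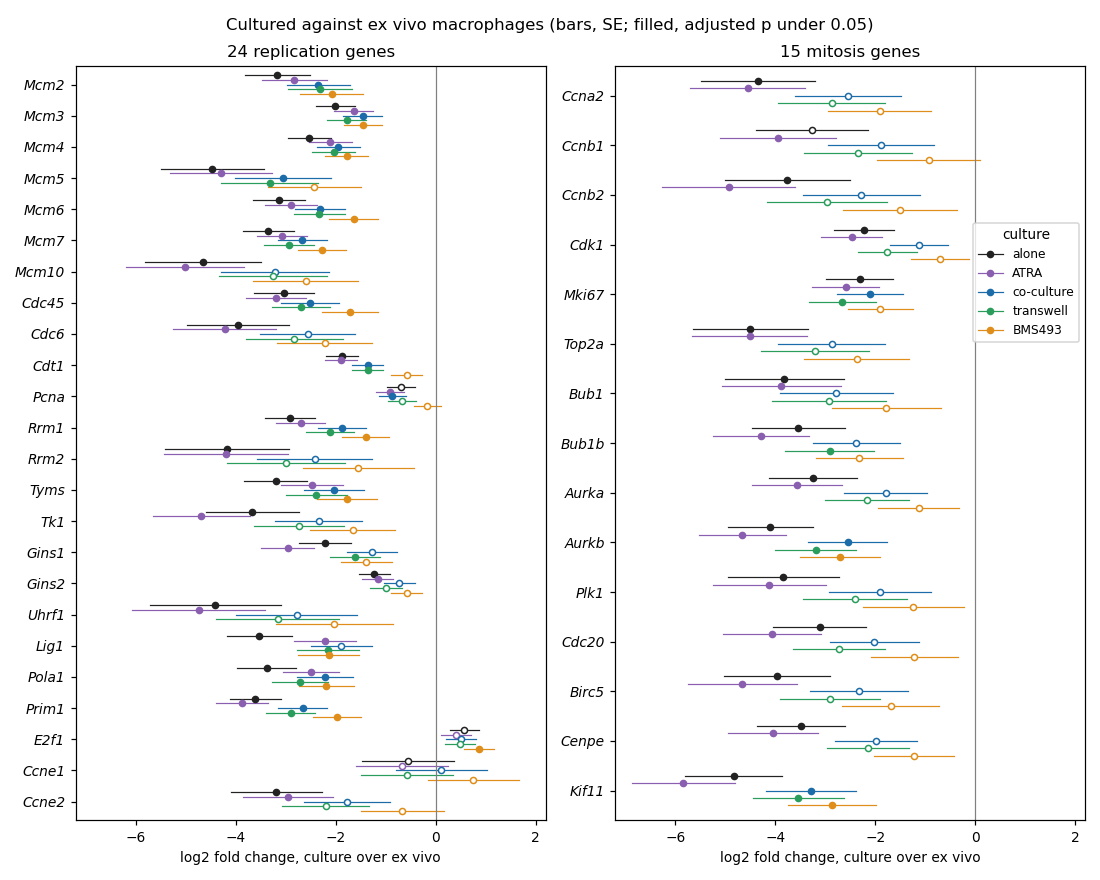
Log2 fold change with SE of each of the 39 genes against ex vivo macrophages in the 5 cultures, with filled points for adjusted p under 0.05 in edgeR. Points for cells alone and with ATRA lie farthest to the negative side and are mostly filled, while E2f1 lies above 0 in all 5 and is filled with BMS493.

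Against macrophages alone, no member was called in co-culture, transwell or BMS493. In co-culture 3 replication genes and no mitosis gene had an unadjusted p under 0.05, and DESeq2 called none (medians 0.94 and 1.49, with 0.63% of genes called higher and 0.0675% lower). Lig1 had the smallest p, at 19.2, 19.99 and 11 CPM against 5.99, 4.33 and 5.37 CPM alone, above every library of cells alone (log2 fold change 1.64, SE 0.61, adjusted p = 0.268). Rrm1 was next, at 70.3, 72.2 and 38.2 CPM against 28.0, 16.3 and 41.1 CPM (1.05, SE 0.47, adjusted p = 0.368), with co-culture replicate 3 inside the range of cells alone. Across the transwell 1 replication gene had p under 0.05 and DESeq2 called none (medians 0.75 and 0.92, 0.0281% called higher and 0.0% lower), and Lig1 and Rrm1 again had the smallest p (log2 fold changes 1.37 and 0.81, adjusted p = 0.495 and 0.611).

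With BMS493, 13 replication and 8 mitosis genes had an unadjusted p under 0.05 against cells alone, at medians of 1.35 and 2.11, with 0.551% of genes called higher and 0.186% lower. Partner cells and the compound cannot be told apart in this comparison. Cdt1, the origin loading factor, stood at 19.7, 20.2 and 11.4 CPM against 4.65, 6.36 and 9.2 CPM, above all libraries of cells alone (log2 fold change 1.30, SE 0.31, adjusted p = 0.0778). Prim1 stood at 8.49, 9.57 and 4.9 CPM against 1.51, 2.43 and 3.2 CPM, also apart (1.63, SE 0.48, adjusted p = 0.139). Cdt1 was called when the batch entered as a block (1.6% of all genes called higher), and DESeq2 called Cdt1, Prim1 and Rrm1. It called 492 genes higher, which is 1.47% of the 33533 tested with no low count filter. Only 19150 of those had an adjusted p, so this share has another base than those of edgeR.

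The batches read in opposite directions in all 3 of these comparisons. In co-culture against alone, 24 of 24 replication genes were higher in batch mbb336 and 23 in batch mbb339, at medians of 1.48 and 1.70, but 18 were lower in batch mbb340, at -0.35. All 15 mitosis genes were higher in batches mbb336 and mbb339, at medians of 2.46 and 3.10, and 14 were lower in batch mbb340, at -0.93. Across the transwell the mitosis medians were 1.99, 2.81 and -1.43, and with BMS493 they were 3.27, 3.90 and -1.12. So batch mbb340 had the opposite sign to the other batches in co-culture, transwell and BMS493.

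Rrm2 shows the pattern in single libraries: cells alone held 1.51, 1.63 and 21.8 CPM, co-culture 31.4, 38.8 and 14.9 CPM, and BMS493 57.8, 83.5 and 16.8 CPM. Top2a held 3.91, 1.96 and 20.9 CPM alone, 38.4, 38.6 and 6.57 CPM in co-culture and 62.6, 48.1 and 9.35 CPM with BMS493. In both genes batch mbb340 was the highest library of the cells alone and the lowest of the other 2 groups.

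**Figure D4:**
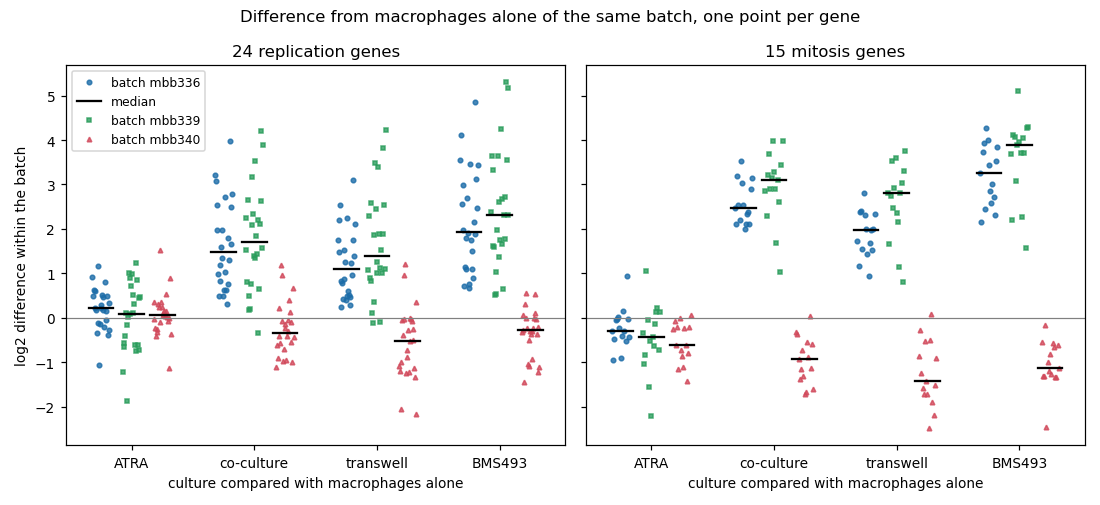
Difference in log2(CPM + 0.5) of each gene from macrophages alone of the same batch, for ATRA, co-culture, transwell and BMS493, replication and mitosis genes apart. In batches mbb336 and mbb339 nearly all points for co-culture, transwell and BMS493 lie above 0, in batch mbb340 most lie below, and with ATRA replication points scatter around 0 and the mitosis medians run from -0.30 to -0.60.

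Without the libraries of batch mbb340, 8 replication and 11 mitosis genes were called higher in co-culture than alone, where 3.85% of all genes were. In the transwell 4 replication and 3 mitosis genes were (1.43% of all genes), and with BMS493 14 of each (4.54% of all genes), while ATRA called none. In co-culture Rrm2 was 21.0-fold higher (log2 fold change 4.39, SE 0.78, adjusted p = 0.0166) and Top2a 12.6-fold higher (3.65, SE 0.61, adjusted p = 0.0145). With BMS493 Rrm2 was 42-fold higher (5.39, SE 0.81, adjusted p = 0.0073). These values rest on 2 libraries a group. The batch left out is the one with the opposite sign, and neither other batch was left out as a whole. These calls therefore restate the split between batches.

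The difference between batch mbb340 and the other 2 in the effect of PDPN+ cells (contact or transwell against alone, 9 libraries) was computed after these values were seen, and it restates them. Its mbb340 baseline is 1 library, macrophages alone replicate 3, so it is given as a description with no test. It was below 0 for 38 of 39 members, with a median of -3.10 against 0.02 over all 16054 genes, and stood at -4.96 for Rrm2, -4.31 for Mcm5, -4.23 for Birc5 and -4.82 for Ccnb1. Other values moved with the batch. The 5 granulocyte markers summed to 4.54, 19.7 and 84.0 CPM alone, 17.0, 25.9 and 72.6 in co-culture, 13.9, 20.3 and 64.0 in the transwell and 14.9, 33.7 and 123 with BMS493, with Ly6g at 0 in all of these. The 10 fibroblast markers summed to 28.8, 6.31 and 101 CPM in cells alone. The RNA integrity number of cells alone in batch mbb340, 9.2, was the lowest of all, and 12678 cells went into its co-culture library against 21458 and 25000. The part of these in the result was not tested.

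RNA of fibroblast markers was present in the co-cultured macrophages. The fibroblast markers summed to 1538, 597 and 323 CPM, which is 3.21%, 1.26% and 1.68% of their sum in the PDPN+ library of the same batch. At those shares PDPN+ cells would carry 19.0, 12.5 and 18.6 CPM of the 15 mitosis genes into sums of 293, 309 and 101 CPM. With BMS493 the shares were 2.71%, 3.09% and 3.31%, or 18.9, 42.8 and 26.4 CPM of sums of 453, 499 and 94.7 CPM. In the transwell the shares were 0.185%, 0.0803% and 0.527%, or 0.903, 1.07 and 5.81 CPM of 174, 242 and 84.4 CPM. These amounts assume that carried RNA keeps the ratio of mitosis to fibroblast marker RNA of the PDPN+ library, which was not tested. Relative to the sums they are larger in batch mbb340 of co-culture and BMS493 than in the other batches. No such amount was computed for the replication genes, and the part of carried RNA in the macrophage sums was not tested.

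No member was called between contact and transwell in edgeR or DESeq2 (medians 0.26 and 0.51, no unadjusted p under 0.05, 0.0394% of genes called higher in contact and 0.0% lower). Cdk1, the mitotic kinase, was among those with the smallest p, at 33.4, 35.3 and 13.5 CPM in contact and 14.6, 23.9 and 14.1 CPM in the transwell, with overlap (log2 fold change 0.63, SE 0.58, adjusted p = 1.0). None was called between BMS493 and co-culture either, with 2 replication genes and no mitosis gene at an unadjusted p under 0.05 and none called by DESeq2 (medians 0.55 and 0.63, 0.124% of genes called higher and 0.726% lower). Pcna stood at 123, 135 and 81.2 CPM with BMS493 against 71.7, 68.1 and 66.4 CPM, above all co-culture libraries (0.70, SE 0.28, adjusted p = 0.429), and Cdt1 was next (0.78, SE 0.31, adjusted p = 0.44). In batches mbb336 and mbb339, 23 and 22 replication genes were higher with BMS493, and in batch mbb340 12 of 24 were.

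PDPN+ cells alone carried more of both sets than macrophages alone. In one fit of all 30 libraries, 17 of 24 replication genes and 14 of 15 mitosis genes were higher in PDPN+ cells and 1, E2f1, was lower, with medians of 2.07 and 3.57 and 22.3% of genes called higher and 16.6% lower. Cdc20, the activator of the anaphase-promoting complex, stood at 82.2, 103 and 87.5 CPM against 2.64, 1.96 and 10.7 CPM, far apart in every library (log2 fold change 4.16, SE 0.84, adjusted p = 0.000366). Ccnb1 stood at 128, 152 and 144 CPM against 2.96, 1.38 and 20.5 CPM (4.10, SE 0.99, adjusted p = 0.00207). Plk1, Birc5, Ccnb2, Ccna2 and Aurka followed, at 3.66 to 4.03 on the log2 scale.

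Among the replication genes Rrm1 stood at 413, 451 and 184 CPM in PDPN+ cells and 28.0, 16.3 and 41.1 CPM in macrophages (log2 fold change 3.62, SE 0.53, adjusted p = 1.01e-05), and Tyms at 62.7, 70.7 and 116 CPM against 3.2, 4.53 and 12 CPM (3.66, SE 0.57, adjusted p = 2.32e-05). Neither gene overlapped between the cell types. Pcna was not called, at 59.96, 58.1 and 107 CPM against 57.3, 86.2 and 81.5 CPM (0.00), and E2f1 was lower, at 8.55, 11.8 and 14.0 CPM against 21.8, 31.0 and 48.2 CPM (-1.56, SE 0.43, adjusted p = 0.00549). Mcm3, Mcm10, Cdt1, Gins1, Ccne1 and Mki67 were not called. Without macrophage replicate 2 the calls went from 32 to 21 members, and without the 2 length-biased libraries they were 32.

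In PDPN+ cells no member was called in any culture. Co-culture against alone gave no call in edgeR or DESeq2 (medians -0.07 and 0.02, 2 replication genes and 1 mitosis gene at an unadjusted p under 0.05, 0.0% of genes called either way). Gins2, a helicase activator, had the smallest p, at 13.4, 16.2 and 22.7 CPM in co-culture against 23.1, 24.1 and 55.3 CPM, all below the cells alone (log2 fold change -1.002, SE 0.37, adjusted p = 0.518), and Tk1 was next at 13.9, 20.6 and 23.9 CPM against 26.7, 28.3 and 66.0 CPM (-1.08, SE 0.42, adjusted p = 0.525). In batches mbb336 and mbb339, 23 and 22 of 24 replication genes were lower in co-culture, and in batch mbb340, 17 were higher.

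The transwell comparison in PDPN+ cells had medians of -0.02 and 0.04 with no unadjusted p under 0.05 (0.0% of genes called either way), and Gins1 (0.38, SE 0.46) and Tk1 (-0.33, SE 0.41) had the smallest p, both with an adjusted p of 1. BMS493 against alone had medians of 0.28 and 0.13, with no unadjusted p under 0.05 (0.162% of genes called higher and 0.0784% lower), and its smallest p fell to Gins2 (-0.69, SE 0.37, adjusted p = 0.514) and Uhrf1 (1.02, SE 0.64, adjusted p = 0.556). Contact against transwell (medians -0.04 and -0.08, 0.00523% called higher and 0.0% lower) had Gins2 (-0.76) and Birc5 (-0.75) first, both at an adjusted p of 0.805. BMS493 against co-culture (medians 0.38 and 0.11, 0.0% called higher and 0.0157% lower) had Prim1 (0.88) and Tk1 (0.58) first, both at 1.0. DESeq2 called no member in these comparisons, and leaving out the 2 length-biased libraries added none. The co-culture libraries of replicates 2 and 3 came from 3730 and 2148 cells.

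The co-culture effect was also compared between the 2 cell types, and no member was called. The effect in PDPN+ cells less that in macrophages had medians of -1.10 for replication and -1.55 for mitosis genes, with 4 and 3 genes at an unadjusted p under 0.05, none called in edgeR or DESeq2, and 0.505% of genes called higher and 0.481% lower. Gins2 came first (-1.51, SE 0.49, adjusted p = 0.168), then Prim1 (-1.92, SE 0.68, adjusted p = 0.234). Without batch mbb340, Birc5 and Top2a were called lower, where 1.1% of genes were. The transwell difference had medians of -0.77 and -1.08, no unadjusted p under 0.05 and no call (0.0% of genes either way).

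Other genes of the same pathways, from lists chosen together with the members, were read in culture alone against ex vivo. Of 28 other replication genes 22 fell and none rose (8.5% of all genes called lower), with Chaf1a, a histone chaperone subunit at the fork, at -3.65 (SE 0.80, adjusted p = 0.0053), Orc1 of the origin recognition complex at -3.31, the kinase gene Cdc7 at -2.88 and the polymerase delta gene Pold1 at -2.81. Of 20 other mitosis genes 17 fell and none rose, with the spindle genes Nusap1 at -4.34, Nuf2 at -4.23, Ndc80 at -4.12 and Ttk at -4.07. With ATRA these counts were 23 and 18 (6.38% of all genes called lower), and in co-culture 22 and 4 (5.45%). In the transwell they were 20 and 9 (5.33%) and with BMS493 13 and 3 (8.96%), none rising. Against cells alone no gene of these lists was called in any culture.

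Of 16 cell cycle transcription factors and pocket proteins, 7 fell and 2 rose in culture alone, against 8.5% of all genes called lower and 9.31% higher. Mybl2, a component of the complex that acts at CHR elements, went from 6.9, 37.2 and 13.6 CPM to 0.528, 0.112 and 0.662 CPM (log2 fold change -5.51, SE 1.12, adjusted p = 0.0034). Foxm1, a factor of mitotic genes, went from 11.8, 64.4 and 32.9 CPM to 1.3, 0.714 and 5.52 CPM (-3.89, SE 1.07, adjusted p = 0.02). Neither overlapped, and E2f8 (-3.89) and Myc (-3.17) also fell. Rb1, the retinoblastoma gene, rose by 1.09 and E2f5 by 0.96 on the log2 scale.

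Myc, a growth regulator, stood at 116, 82.3 and 98.7 CPM ex vivo, 10.4, 6.67 and 16.1 CPM alone and 24.4, 34.0 and 32.7 CPM in co-culture, and every library of the 5 cultures lay below the ex vivo range. Of 7 genes, those of the D cyclins, the kinases Cdk2, Cdk4 and Cdk6 and the phosphatase Cdc25a, 4 fell in culture alone (8.5% of all genes called lower). Ccnd1 went from 64.1, 42.4 and 69.6 CPM to 4.33, 3.17 and 10.5 CPM (log2 fold change -3.30, SE 0.97, adjusted p = 0.028), and it stood at 49.3, 63.2 and 33.9 CPM in co-culture, which overlaps the ex vivo values. Ccnd3 went from 277, 259 and 307 CPM to 57.9, 72.3 and 92.4 CPM (-1.92, SE 0.21, adjusted p = 2.9e-05). Ccnd2 rose against ex vivo with ATRA (4.45, SE 1.10, adjusted p = 0.013), from 2.6, 2.49 and 3.47 CPM to 7.64, 9.11 and 178 CPM, and batch mbb340 was the high library.

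Of 7 CDK inhibitor genes 2 rose and 1 fell in culture alone, where 9.31% of all genes were called higher and 8.5% lower. Cdkn1a, which encodes p21, went from 65.9, 85.8 and 82.4 CPM to 124, 243 and 203 CPM (log2 fold change 1.28, SE 0.42, adjusted p = 0.048). Cdkn2b, which encodes p15, went from 20.7, 6.12 and 15.4 CPM to 33.2, 35.5 and 38.2 CPM (1.34, SE 0.35, adjusted p = 0.014). For both the cultured libraries lay above all ex vivo ones, and the same 2 genes were called higher in each of the 5 cultures, in which 7.61% to 12.3% of all genes were. Cdkn2d went the other way, from 42.8, 67.3 and 42.7 CPM to 14.5, 18 and 16 CPM (-1.66, SE 0.26, adjusted p = 0.00054). Against PDPN+ cells alone, macrophages alone were lower in 15 of 28 other replication and 16 of 20 other mitosis genes, with none higher, where 22.3% of all genes were called lower in macrophages and 16.6% higher.

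**Figure D5:**
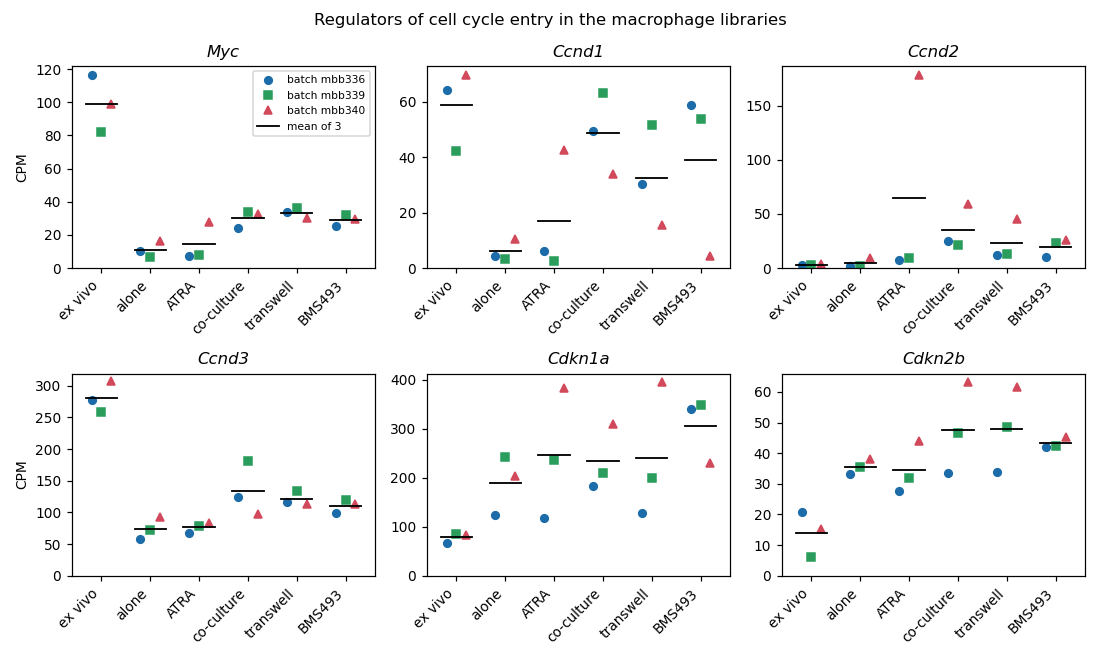
CPM of Myc, Ccnd1, Ccnd2, Ccnd3, Cdkn1a and Cdkn2b in the 18 macrophage libraries by group, points coloured by batch. Myc and Ccnd3 lie highest ex vivo, Ccnd1 is low alone and with ATRA in batches mbb336 and mbb339, and Cdkn1a and Cdkn2b lie above the ex vivo libraries in culture.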

How the data were processed

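PolyA RNA of 30 libraries was compared as 10 groups of 3. Each library has 1 deposited table of 50764 gene models. Its counts, per the file headers, are reads with a unique alignment. Its second measure is RPKM that the authors scaled by size factors, used here only to order genes by level per length. The submitters' processing notes name GSNAP and GRCm38. No version, annotation or strand setting is given in the sources used here, so overlapping and antisense genes cannot be separated. Identifiers with no symbol (192) hold 0.0358% of the counts.

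Counts were tested with edgeR 4.0.16 (R 4.3.3, limma 3.58.1): TMM scaling, edgeR's low count filter by group, a quasi-likelihood test with group as the only factor, and Benjamini-Hochberg adjustment over all genes tested. Separate fits held 18 macrophage libraries (17774 genes), 12 PDPN+ libraries (19134 genes) and all 30 (20987 genes). CPM is relative to TMM-scaled totals. Within-batch differences use log2(CPM + 0.5). An SE is the log2 fold change over the square root of F. The method was tested on simulated counts drawn independently for each gene with no batch effect. That simulation does not cover the differences between batches seen here.

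Genes with full statistics are the called members with the largest change whose higher group averaged 1 CPM or more, at most 10 a comparison, or the 2 with the smallest p where none was called. At most 4 genes are named from each other list. The members and lists were chosen with earlier results of these data known. Alternatives were other scaling, no low count filter, DESeq2 1.42.0, only the compared groups, a replicate block, and leaving out libraries, the batch mbb340 or libraries of under 5000 cells. Leaving out the 2 PDPN+ libraries that deviate with exon length, and the difference of batch mbb340 from the others, were chosen after seeing the data. Same-numbered libraries share a batch by label. Their deviations from group means correlated at a median r of 0.262 in macrophages (31 of 45 pairs over 0.1) and 0.187 in PDPN+ cells (14 of 18), across genes. Counts of any 2 replicates differed beyond sampling noise (chi-square over its degrees of freedom 49.02 or more).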

Additional observations from a re-analysis of the deposited data

Results flagged for a closer look

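Tyms, Gins1, Lig1 and Prim1 read higher in co-culture than alone in every batch of macrophages and lower in every batch of PDPN+ cells. They were picked from the 39 members by this pattern of signs, and its share among all genes was not computed. In batch mbb340 the PDPN+ sign rests on alone replicate 3, which deviates with exon length, and on a co-culture library of 2148 cells. The mean log2 difference of Tyms was 1.30 in macrophages and -0.30 in PDPN+ cells, and that of Gins1 was 0.86 and -0.18. For Lig1 the differences were 1.55 and -0.46, and for Prim1 0.85 and -1.05. The test of the difference between cell types, edgeR's quasi-likelihood test, called none of them (adjusted p = 0.466 for Tyms, 0.583 for Gins1, 0.243 for Lig1 and 0.234 for Prim1).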

How the results depend on the processing

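With the replicate block (the batch as a block, since numbers pair the libraries by label), BMS493 against alone called 1 member in place of 0, co-culture, transwell and BMS493 against ex vivo called 17, 19 and 14, and the block moved no other count by over 1.5 times. In these 3 comparisons with ex vivo cells 1523, 1482 and 2261 of all 17774 genes were then called lower. The main fits called 968, 947 and 1593 lower. DESeq2 called 34 members in transwell against ex vivo and 3 in BMS493 against alone. Over all genes it called 1400 lower in the former, of 18498 with an adjusted p, and 492 higher in the latter, of 19150. Without batch mbb340, calls were 25 for co-culture and 29 for transwell against ex vivo, 19 for co-culture, 7 for transwell and 28 for BMS493 against alone, and 2 for the difference of the co-culture effect between cell types. In the 2 comparisons with ex vivo cells 930 and 925 of all 18049 genes were called lower. With only the compared groups in the fit, co-culture and transwell against ex vivo called 25 and 30, where 1329 of 15469 and 1087 of 15164 genes were called lower. RLE scaling, no low count filter, and omission of libraries of under 5000 cells or of the 2 PDPN+ libraries that deviate with exon length moved no count by over 1.5 times. The causes were not tested.

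Leaving out 1 library at a time, calls ranged from 17 to 36 for alone, 19 to 36 for ATRA, 4 to 16 for co-culture, 7 to 21 for transwell and 1 to 15 for BMS493 against ex vivo, from 0 to 1 for BMS493 against alone, and from 21 to 35 for PDPN+ cells against macrophages. The share of all genes called in single omissions is given above only for ex vivo replicate 2. For members called in the 5 comparisons with ex vivo cells or between cell types, of 1856 single-gene values under the alternatives 1540 kept direction and call, 316 kept direction only, and none turned sign. In cells alone replicate 2, Uhrf1 at 0.0892 CPM and Mcm10 at 0.223 CPM rest on few reads.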
